A study of Mus musculus with 26 samples.

Results

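In adipocytes of formerly obese mice, 623 of 14461 genes tested were expressed outside the range of both constant diets. These are the genes whose 3 libraries from mice switched from a high fat to a low fat diet (SW) all lay above, or all lay below, the 3 libraries of lean mice (LFD) and the 3 of obese mice (HFD). They were found from CPM, which are counts scaled to library size and here also by TMM factors, with 316 genes being above all 6 other libraries (2.19% of genes tested) and 307 below them (2.12%). The same count gave 4188 genes with LFD as the outer group (1863 above, 2325 below) and 5422 with HFD (2917 above, 2505 below), so the SW libraries were the outer group for the fewest genes. All mice were male C57BL/6J, aged 9 to 10 weeks at the start. LFD mice ate a diet with 10% of fat and HFD mice one with 60% of fat for 12 weeks. SW mice ate the HFD for 9 weeks and the LFD for the last 3 weeks, and lost about 10% of their weight. Epididymal fat was separated into floating adipocytes and stromal vascular cells (SVC), and polyadenylated RNA of each fraction was sequenced.

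White adipocytes store triglyceride and release fatty acids and hormones, and in obesity the fat pad also fills with macrophages and other immune cells. Weight loss reverses many of these changes in expression, and a gene may stop between the lean and the obese level, return to the lean level, or pass beyond both. The questions here are which genes these were, what they had in common, and how firmly 3 libraries in each group place them there.

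The adipocyte libraries held between 6142895 and 23725647 counts. The libraries of each diet are called A, B and C here, in the order of the table's columns, and 3 values of a diet are given in that order. SW library A stood apart from the other 8. Its TMM factor was 0.842 against 0.984 to 1.09 in the others, 5.93% of its counts came from ribosomal protein genes against 2.78% to 4.0%, and its second principal component score was -67.3 against -21.5 to 26.6. For the named genes that it led and that did not pass without it, values without it are given. The files name each library only by a number found in no label, and p-values therefore measure the spread between 3 libraries of a group. The labels list paired-end runs for every adipocyte replicate, and further single runs for some HFD and LFD replicates but for no SW replicate. They make 4 HFD, 5 LFD and 3 SW samples. Which runs a column holds is not given. The part of run type in differences between SW and the other diets was not tested. In bulk RNA, fewer cells of a type and less RNA in each cell cannot be told apart.

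Most of the 623 genes lay close to the boundary. The gap was measured as the ratio between the nearest SW library and the nearest other library, and its median was 1.05 for genes above and 1.05 for genes below. A gap under 1.1 was found for 464 genes, and a gap over 1.5 for 7. At the boundary itself, Cd6 was just inside with 0.71539 CPM in its lowest SW library against 0.71533 CPM in the highest other, and Tmem180 was just outside with 7.4488 against 7.4532 CPM. On the lower side Farp2 was just inside (5.8269 against 5.8284 CPM) and Myh2 just outside (0.3577 against 0.35767 CPM). Of the genes above, 18 had fewer than 3 other libraries with 10 counts, and could enter the set through their SW level. This was so for 1 of the genes below.

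Groups were then compared by the quasi-likelihood test of edgeR, fitted over all genes and adjusted by Benjamini-Hochberg. SW differed from the equal-weight mean of LFD and HFD at 518 genes in the higher direction (3.58%) and at 89 in the lower direction (0.615%). Of these, 85 of the 518 and 60 of the 89 were among the genes outside both diets. Since the levels that chose the genes also enter this test, the counts describe them and are no further evidence. Another 231 genes above and 247 below did not pass. A stricter call asked for an adjusted p under 0.05 against HFD and against LFD, in the same direction. It found 58 genes higher (0.401%) and 34 lower (0.235%). All 34 lower genes were outside both diets, and so were 47 of the 58 higher genes, the other 11 having overlapping libraries.

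**Figure D1:**
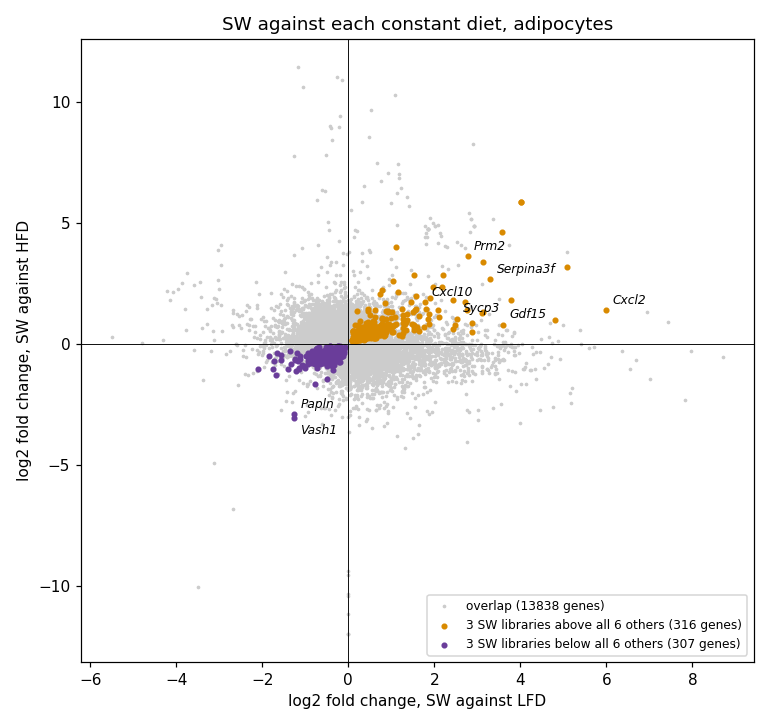
Log2 fold change of SW against LFD (horizontal) and against HFD (vertical) for each of the 14461 adipocyte genes tested. The 316 genes above all 6 other libraries (orange) lie in the upper right and the 307 below (purple) in the lower left, mostly near the origin, and the 13838 other genes (grey) fill the plot.

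Cxcl2 had the largest rise over the mean of both diets among the 12 leading higher genes. Cxcl2, a chemokine that draws neutrophils, was measured at 1.74, 0.825 and 0.396 CPM in LFD, 34.3, 24.2 and 9.30 CPM in HFD and 46.7, 78.3 and 52.4 CPM in SW libraries. It was low in lean, intermediate in obese and highest in formerly obese mice, with no overlap. The log2 fold change was 1.40 ± 0.40 (SE) against HFD (edgeR adjusted p = 0.0273) and 6.00 ± 0.59 against LFD (adjusted p = 0.000115). Gdf15, a stress hormone that lowers food intake through a receptor in the hindbrain, followed the same order. It stood at 3.33, 1.81 and 1.32 CPM in LFD, 18.6, 11.5 and 13.2 CPM in HFD and 25.8, 25.7 and 23.1 CPM in SW libraries. The SW mean of 24.9 ± 1.52 CPM (SD, n = 3) compared with 14.4 ± 3.67 CPM in HFD and 2.15 ± 1.05 CPM in LFD, and the edgeR adjusted p was 0.0258 against HFD and 5.42e-05 against LFD.

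To show the sequence next to the start of these genes, 4 promoters are printed from RefSeq (GRCm38.p6), each holding the 250 bases before the start, 5′ to 3′ on the strand of the gene. Cxcl2, Cxcl10 and Fosb were above all other libraries and Vash1 below them, and each was chosen because its window matches the kappaB consensus, the motif bound by the NF-kappaB family. Capitals mark all matches to the motifs searched, kappaB included.
Cxcl2 (chr5:90903649-90903898, plus strand): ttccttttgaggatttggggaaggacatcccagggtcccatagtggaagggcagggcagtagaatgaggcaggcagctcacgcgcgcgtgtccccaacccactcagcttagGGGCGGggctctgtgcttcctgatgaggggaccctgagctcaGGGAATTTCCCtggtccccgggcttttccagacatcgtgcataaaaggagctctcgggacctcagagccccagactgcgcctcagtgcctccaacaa
Cxcl10 (chr5:92348890-92349139, minus strand): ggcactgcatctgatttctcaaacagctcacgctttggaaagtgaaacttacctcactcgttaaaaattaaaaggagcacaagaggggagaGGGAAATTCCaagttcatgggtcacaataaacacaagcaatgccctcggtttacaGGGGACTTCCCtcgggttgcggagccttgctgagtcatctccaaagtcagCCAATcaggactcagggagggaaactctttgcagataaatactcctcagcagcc
Fosb (chr7:19310046-19310295, minus strand): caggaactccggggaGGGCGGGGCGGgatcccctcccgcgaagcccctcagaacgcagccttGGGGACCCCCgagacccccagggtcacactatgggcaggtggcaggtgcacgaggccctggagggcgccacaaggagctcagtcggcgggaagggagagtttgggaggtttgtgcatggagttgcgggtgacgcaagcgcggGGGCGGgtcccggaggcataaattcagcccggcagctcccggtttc
Vash1 (chr12:86678450-86678699, plus strand): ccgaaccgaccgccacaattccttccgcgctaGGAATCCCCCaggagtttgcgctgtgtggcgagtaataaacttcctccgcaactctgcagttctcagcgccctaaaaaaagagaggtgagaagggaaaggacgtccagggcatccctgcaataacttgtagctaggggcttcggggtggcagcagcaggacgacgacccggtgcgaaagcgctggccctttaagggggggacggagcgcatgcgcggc

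A kappaB match was about as frequent on either side. Over windows of 250 bases before and 50 after each start, read on both strands, it was held by 11.3% of 284 promoters of genes above and by 9.66% of 321 promoters of genes below, against 10.4% of promoters of genes tested and 8.46% of all 32851 promoters. The E-box CACGTG was held by 13.0% of promoters of genes above and 6.23% of those of genes below, with 9.65% for genes tested and 7.15% for all. The GC box GGGCGG (59.5% above, 64.8% below, 60.3% of genes tested, 35.7% of all) and the CCAAT box (35.6% above, 29.6% below, 37.3% and 37.4%) were common throughout. The sterol element TCACCCC was held by 4.23% above, 3.74% below, 5.35% of genes tested and 4.97% of all promoters, and the nuclear receptor element AGGTCA, in the same order, by 15.1%, 14.0%, 12.7% and 16.3%. The cyclic AMP element TGACGTCA stood at 3.52%, 3.43%, 2.84% and 1.79%, the Atf4 element TGATGCAA at 1.41%, 0.312%, 0.595% and 0.895%, and the serum response element at 2.46%, 1.56%, 1.38% and 1.63%. These are descriptions of letters within a window. Promoters were matched for 456 of the 623 genes, and a gene may have several.

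Other higher genes of immune function were led by library A. Cxcl10, a chemokine for T cells, was at 31.3, 14.7 and 9.23 CPM in SW libraries A, B and C, against 7.29, 4.07 and 5.01 CPM in LFD and 4.73, 7.26 and 4.43 CPM in HFD. All 3 SW libraries were higher than the others, and the log2 fold change was 1.72 ± 0.41 against HFD (edgeR adjusted p = 0.0144) and 1.78 ± 0.43 against LFD (adjusted p = 0.0188). Without library A the log2 fold change against the mean of both diets was 1.15 in place of 1.75, with an adjusted p of 0.0722. Aif1, a macrophage gene, was at 111 CPM in library A, 40.3 and 29.8 CPM in the other SW libraries and between 10.2 and 28.4 CPM in the 6 others. Its log2 fold change of 1.60 against the mean of both diets was 0.828 without library A (adjusted p = 0.0607). With all libraries, Aif1 did not pass against HFD (edgeR adjusted p = 0.0631). Serpina3f, a protease inhibitor, was at 14.2, 5.41 and 1.43 CPM in SW and between 0.264 and 1.25 CPM elsewhere, and Bcl2a1a, an inhibitor of cell death, at 14.0, 7.09 and 3.15 CPM against 0.527 to 2.93 CPM. Both belong to families of near-identical copies, so reads may have been divided among relatives. Trbc2, a T cell receptor constant segment, was at 7.15, 4.08 and 1.65 CPM in SW and 0.396 to 1.5 CPM elsewhere, and belongs to such a pair too. It did not pass against LFD (edgeR adjusted p = 0.0578). Without library A the log2 fold change against the mean of both diets fell from 2.99 to 2.0 for Serpina3f (edgeR adjusted p = 0.0877), from 2.21 to 1.58 for Bcl2a1a (adjusted p = 0.0677) and from 2.15 to 1.60 for Trbc2 (adjusted p = 0.195), and none of the 3 passed.

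For other immune genes library A stood less apart. Clec4e, a receptor of macrophages for damaged cells and fungi, was at 3.57, 5.95 and 1.79 CPM in SW libraries, at 0.132 to 0.567 CPM in LFD and at 1.42 to 1.74 CPM in HFD. Ccl7, a chemokine for monocytes, was at 66.5, 52.3 and 97.4 CPM in SW and between 11.9 and 46.9 CPM elsewhere. Dusp2, a phosphatase that turns off MAP kinases, was at 5.47, 4.51 and 2.93 CPM in SW and 0.923 to 2.25 CPM elsewhere, and did not pass without library A (log2 fold change 1.20 in place of 1.40, edgeR adjusted p = 0.124). P2ry10, a receptor of lymphocytes for lysophospholipids, had the widest separation of the leading higher genes, with 3.57, 4.14 and 2.58 CPM in SW and 0.923 to 1.70 CPM elsewhere, a gap of 1.52. Neither P2ry10 nor Ccl7 passed against the mean of both diets without library A, while Clec4e did (edgeR adjusted p = 0.0394). The log2 fold change was then 1.26 in place of 1.29 for P2ry10 (adjusted p = 0.0617) and 1.43 in place of 1.38 for Ccl7 (adjusted p = 0.0859).

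Markers of immune cells were compared as whole lists, each by its summed CPM. The 11 macrophage markers summed to 701 to 1187 CPM in LFD, 8649 to 10101 CPM in HFD and 6161 to 9064 CPM in SW libraries. None of them lay outside both diets, although 8 of 11 were higher in SW than the mean of both diets by the edgeR test. The lipid-associated macrophage list (10 markers) summed to 9533 to 9946 CPM in LFD, 14990 to 16869 CPM in HFD and 12834 to 16092 CPM in SW, again with none outside. Its abundant members set that sum, and 9 of 10 were higher in SW than in LFD and 8 of 10 than the mean of both diets by the edgeR test, with a median log2 fold change of 4.21 against LFD. The T cell list (11 markers) summed to 20.2 to 40.6, 152 to 250 and 94.9 to 181 CPM, the B cell list (10 markers) to 331 to 633, 413 to 579 and 505 to 710 CPM, and the neutrophil and mast cell list (10 markers, Ly6g at 0 in every library) to 42.9 to 79.9, 109 to 231 and 148 to 374 CPM. The part of these cells in the chemokine and receptor genes above was not tested. The 12 adipocyte markers summed to 33616 to 52361 CPM in LFD, 12542 to 21107 CPM in HFD and 29127 to 29962 CPM in SW, so that all 9 libraries carried the labelled cell type.

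**Figure D2:**
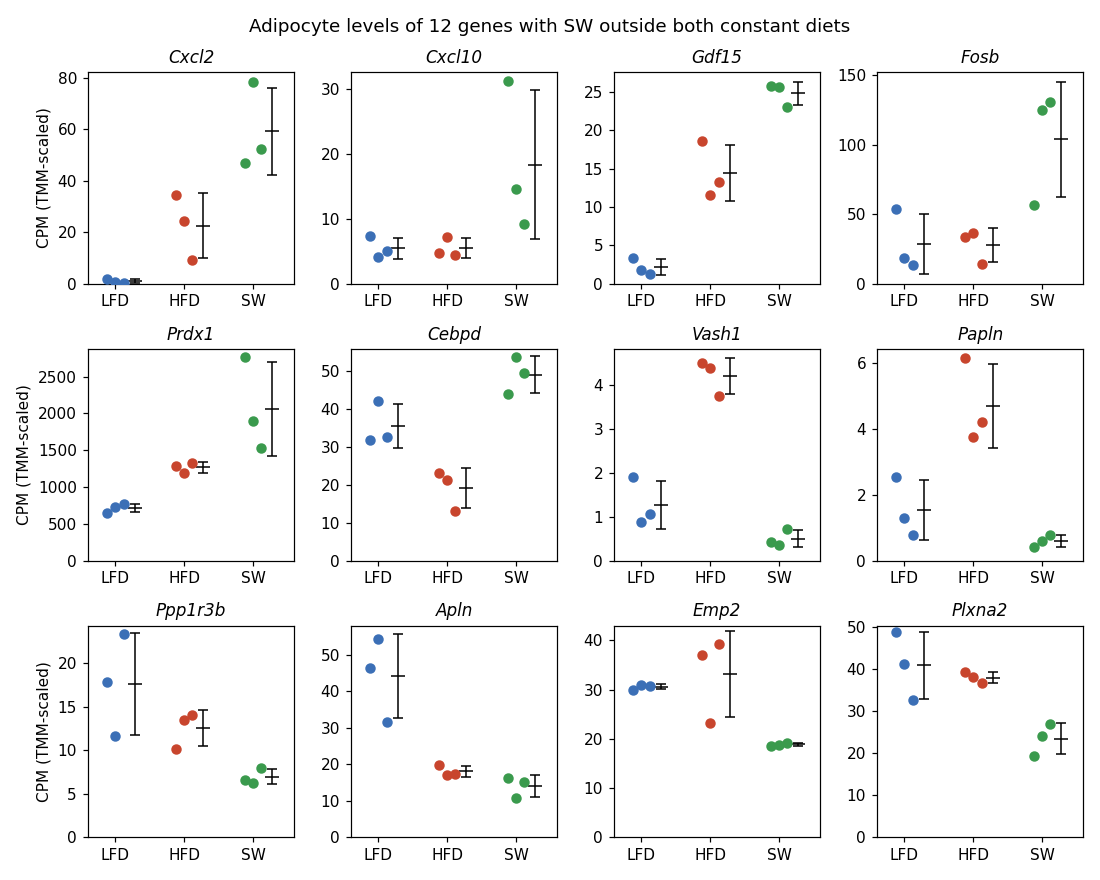
CPM of 12 genes in each adipocyte library (points, with the group mean and SD beside them) for LFD, HFD and SW mice, on axes that start at 0. In each panel the 3 SW points lie above or below all 6 others, as for Gdf15 with 23.1 to 25.8 CPM in SW.

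Immediate early genes, which a stimulus induces within minutes without new protein synthesis, formed a further group. Of 21 tested, 4 lay above both diets (Fosb, Ier2, Jund and Myc) and none below, and 9 were higher than the mean of both diets by the edgeR test, against 3.58% of all genes. The median log2 fold change of the list was 1.01, against 0.0156 for all genes. The fat was minced and digested with collagenase before RNA was isolated, and the part of this handling in the early genes was not tested. Fosb, a subunit of AP-1, was at 56.3, 125 and 131 CPM in SW, at 53.4, 18.3 and 13.7 CPM in LFD and at 33.4, 36.6 and 14.0 CPM in HFD. The lowest SW and the highest LFD library were nearly level. Ier2, a nuclear factor of the early response, was at 169, 188 and 231 CPM in SW, at 80.3 to 135 CPM in LFD and at 49.8 to 95.1 CPM in HFD. Jund, another AP-1 subunit, was at 323, 250 and 318 CPM in SW against 114 to 237 CPM elsewhere, and Myc, a transcription factor of cell growth, at 25.3, 32.0 and 24.0 CPM against 11.6 to 23.3 CPM. The log2 fold change against LFD was 0.89 ± 0.25 for Ier2 (edgeR adjusted p = 0.038), while Jund did not pass against LFD (adjusted p = 0.0582) nor Myc against HFD (adjusted p = 0.0757). Without library A, Myc did not pass against the mean of both diets (edgeR adjusted p = 0.0714).

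Within the integrated stress response list, 3 of 25 genes lay above both diets, against 2.19% of all genes, and none below. Ppp1r15a, which restores translation by dephosphorylating eIF2alpha, was at 56.7, 77.3 and 76.9 CPM in SW against 31.4 to 54.3 CPM elsewhere, and passed against both HFD (edgeR adjusted p = 0.0308) and LFD (adjusted p = 0.0157). Slc7a11, the cystine importer, was at 3.36, 3.48 and 2.22 CPM against 0.791 to 2.06 CPM, and did not pass against the mean of both diets (adjusted p = 0.0786). Gdf15 was the third. The list's median log2 fold change was 0.00369, next to 0.0156 for all genes. The unfolded protein response (22 genes) and heat shock (18 genes) lists had none outside.

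Genes of redox defence were also found above both diets, 4 of the 31 tested against 2.19% of all genes. Prdx1, a peroxidase that removes hydrogen peroxide, was at 2775, 1896 and 1532 CPM in SW, at 653, 723 and 765 CPM in LFD and at 1287, 1186 and 1331 CPM in HFD. It rose with obesity and was highest after the switch, with a log2 fold change of 0.71 ± 0.22 against HFD (edgeR adjusted p = 0.0345) and 1.53 ± 0.22 against LFD (adjusted p = 0.00112). Gsr, which recycles glutathione, was at 68.9, 61.6 and 50.8 CPM in SW against 39.1 to 49.2 CPM elsewhere. It passed against HFD (edgeR adjusted p = 0.0137) but not LFD (adjusted p = 0.0763), nor against their mean without library A (adjusted p = 0.171). Ephx1, an epoxide hydrolase, was at 138, 165 and 150 CPM against 103 to 125 CPM, and Gss, a glutathione synthase, at 35.1, 30.0 and 31.8 CPM against 22.2 to 27.6 CPM. Mt1, a metallothionein that binds zinc and is induced by glucocorticoids, was at 509, 303 and 380 CPM in SW and between 132 and 276 CPM elsewhere. It passed against HFD (1.30 ± 0.27, edgeR adjusted p = 0.00983) and against LFD (0.92 ± 0.27, adjusted p = 0.0427). Library A was the highest, and without it the log2 fold change against the mean of both diets was 0.89 in place of 1.11 and did not pass (edgeR adjusted p = 0.108).

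Genes of lipid and glucose metabolism were few. None of 23 de novo lipogenesis, 23 cholesterol synthesis, 25 triglyceride synthesis, 24 lipolysis, 23 branched-chain amino acid, 31 tricarboxylic acid cycle or 40 respiratory chain genes lay outside, and neither did any of 22 thermogenesis, 19 circadian clock, 29 cell cycle or 24 interferon-stimulated genes. Aldoa, an aldolase of glycolysis, was the only one of 20 glycolytic genes above and did not pass against the mean of both diets (edgeR adjusted p = 0.289). Cebpd, an early factor of adipogenesis, was at 44.0, 53.7 and 49.5 CPM in SW against 13.2 to 42.1 CPM elsewhere, and passed against HFD (adjusted p = 0.00419) but not LFD (adjusted p = 0.149). In the insulin list 2 of 28 genes lay below both diets, against 2.12% of all genes. Ppp1r3b, which directs protein phosphatase to glycogen, was at 6.62, 6.31 and 7.94 CPM in SW, 17.9, 11.7 and 23.3 CPM in LFD and 10.2, 13.4 and 14.1 CPM in HFD, and passed against both diets (edgeR adjusted p = 0.0259 and 0.00526). Without library A it did not pass against the mean of both diets (edgeR adjusted p = 0.095). Pik3r1, the regulatory subunit of PI3-kinase, was at 74.9, 88.7 and 100 CPM in SW against 104 to 161 CPM elsewhere. Its adjusted p was 0.0616 against HFD, and 0.124 against the mean of both diets without library A, the lowest SW library (edgeR).

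The V-ATPase, the proton pump that acidifies lysosomes, had 5 of 20 tested subunits above both diets, against 2.19% of all genes, and none below. These were Atp6v0b, Atp6v1e1, Atp6v1f, Atp6v1g1 and Atp6v1h, and library A was the highest SW library for all 5. Atp6v0b was at 372, 227 and 242 CPM in SW and between 147 and 218 CPM elsewhere, and Atp6v1h at 168, 167 and 159 CPM against 119 to 141 CPM. The list's median log2 fold change against the mean of both diets was 0.343, and 2 of 20 subunits passed the test as higher, against 3.58% of all genes. Without library A, Atp6v0b had a log2 fold change of 0.42 in place of 0.68 and did not pass (edgeR adjusted p = 0.131). With all libraries, Atp6v0b did not pass against HFD (edgeR adjusted p = 0.0766). Atp6v0a1, the subunit the study turns on, lay between the diets. It was at 299, 254 and 272 CPM in SW, 146, 133 and 114 CPM in LFD and 332, 365 and 386 CPM in HFD. The log2 fold change was 1.07 ± 0.14 against LFD (edgeR adjusted p = 0.000616). Against HFD it was -0.39 ± 0.14 and did not pass (adjusted p = 0.053). In the lysosome and autophagy list, Gabarap and Atg7 were the 2 of 31 genes above both diets, against 2.19% of all genes. Cytosolic ribosomal protein genes had 12 of 37 above, the largest share of the lists and against 2.19% of all genes. None of them passed the edgeR test against the mean of both diets. Library A was the highest SW library for all 12, and these genes have many processed copies with which reads may be shared.

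**Figure D3:**
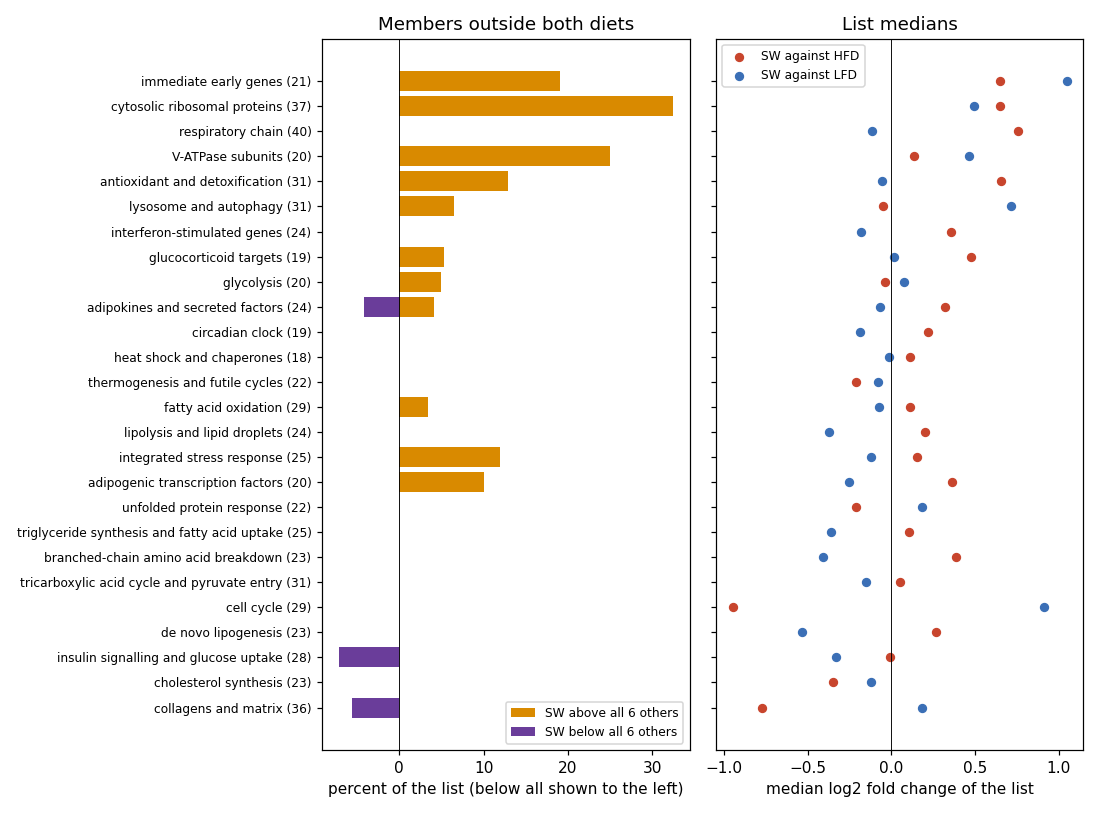
Left, percent of each gene list (number tested in brackets) whose SW libraries lay above (orange) or below (purple, drawn to the left) all 6 others; right, the list's median log2 fold change of SW against HFD (red) and LFD (blue). Most lists have blue and red on opposite sides of 0. The immediate early, cytosolic ribosomal, V-ATPase and glucocorticoid target lists have both to the right. The cholesterol synthesis, thermogenesis and insulin lists have both to the left.

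Vash1 and Papln led the lower group. Vash1, an inhibitor of angiogenesis, was at 0.421, 0.360 and 0.715 CPM in SW, 1.90, 0.877 and 1.05 CPM in LFD and 4.51, 4.38 and 3.76 CPM in HFD. It was raised in obese mice and lowest after the switch, with a log2 fold change of -3.05 ± 0.36 against HFD (edgeR adjusted p = 0.00215) and -1.25 ± 0.41 against LFD (adjusted p = 0.0627). Papln, a matrix protein, followed the same order with 0.421, 0.601 and 0.787 CPM in SW, 0.791 to 2.54 CPM in LFD and 3.76 to 6.16 CPM in HFD. The highest SW and the lowest LFD library were nearly level, and Papln did not pass against LFD (edgeR adjusted p = 0.0902). Both genes rest on few counts in SW, with 4, 6 and 10 for Vash1 and 4, 10 and 11 for Papln. Apln, which encodes the adipokine apelin, ran the other way, with 16.2, 10.8 and 15.2 CPM in SW, 46.5, 54.5 and 31.6 CPM in LFD and 19.9, 17.1 and 17.4 CPM in HFD. Its log2 fold change was -1.67 ± 0.22 against LFD (adjusted p = 0.000567) and -0.37 ± 0.21 against HFD (adjusted p = 0.2).

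Emp2, a membrane protein of epithelia, was at 18.6, 18.8 and 19.2 CPM in SW and 23.1 to 39.2 CPM elsewhere. Its SW libraries lay close together, and it passed against HFD and LFD. Plxna2, a semaphorin receptor, was at 19.4, 24.1 and 26.8 CPM against 32.7 to 48.7 CPM, and Dennd4a, a Rab exchange factor, at 13.9, 14.8 and 15.5 CPM against 19.5 to 29.0 CPM. Ttc28 was at 18.5, 18.5 and 22.2 CPM against 28.5 to 40.1 CPM, Klf7, a Krüppel-like transcription factor, at 8.94, 11 and 10.1 CPM against 12.3 to 21.6 CPM, and Prnd, a relative of the prion protein, at 7.15, 6.19 and 8.30 CPM against 10.5 to 18.7 CPM. Ret, a receptor tyrosine kinase, was at 13.9, 9.55 and 14.2 CPM against 17.0 to 39.2 CPM and missed the threshold against HFD (edgeR adjusted p = 0.0502). Olfr558, an olfactory receptor gene, was at 4.73, 4.75 and 5.15 CPM against 6.08 to 20.6 CPM, and missed it too (adjusted p = 0.0697). Library A was the lowest SW library for Papln, Klf7, Olfr558, Emp2, Plxna2 and Dennd4a, and none of them passed against the mean of both diets without it. Their log2 fold changes were then -1.91, -0.73, -1.20, -0.74, -0.63 and -0.66, in place of -2.08, -0.81, -1.22, -0.75, -0.74 and -0.70, with edgeR adjusted p from 0.0696 for Plxna2 to 0.174 for Klf7. Prnd and Ret, lowest in library B, did not pass against that mean without library A either (edgeR adjusted p = 0.1065 and 0.0885). In the collagen and matrix list, Sparc and Nid1, a basement membrane protein, were the 2 of 36 genes below both diets, against 2.12% of all genes. Neither passed against the mean of both diets (edgeR adjusted p = 0.116 and 0.0659). Of the cell type lists, the 11 endothelial markers summed to 2914 to 3290 CPM in LFD, 1058 to 1992 CPM in HFD and 1636 to 1946 CPM in SW, with none outside. The 12 fibroblast and progenitor markers summed to 2771.5 to 3947 CPM in LFD, 6502 to 8535 CPM in HFD and 4485 to 5284 CPM in SW, which lay between the diets. The 12 skeletal and smooth muscle markers, at 664 to 727 CPM in LFD, 124 to 170 CPM in HFD and 210 to 253 CPM in SW, also lay between. The 7 erythrocyte markers summed to 2133 to 3206.5 CPM in LFD, 612 to 761 CPM in HFD and 1316 to 2135 CPM in SW. The 9 nerve markers overlapped, at 344 to 371 CPM in LFD, 339 to 376 CPM in HFD and 351 to 414 CPM in SW. None of the tested genes of these 4 lists lay outside. The 11 mesothelial markers summed to 107 to 209 CPM in LFD, 14.6 to 51.0 CPM in HFD and 30.8 to 57.7 CPM in SW. Of these Wt1, a transcription factor of mesothelium, lay below both diets and did not pass against their mean (edgeR adjusted p = 0.199). The part of these cells in the lower genes was not tested.

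**Figure D4:**
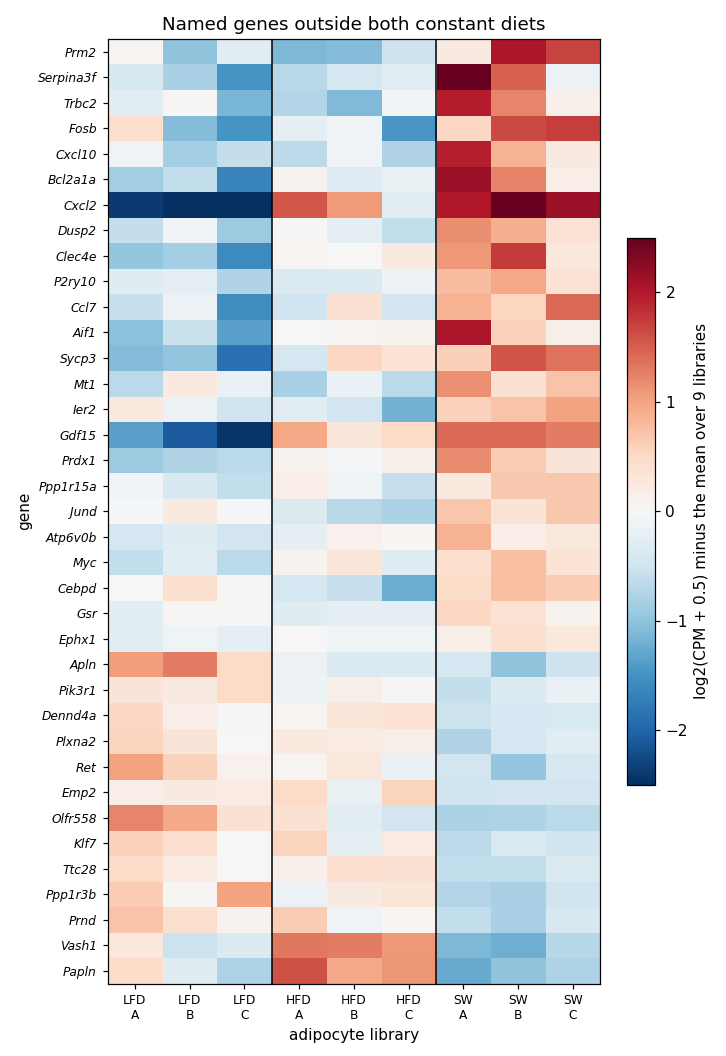
Level of the 37 named genes outside both diets in each adipocyte library, as log2(CPM + 0.5) minus the mean of the gene over 9 libraries (red higher, blue lower), grouped by diet. The 3 SW columns are the reddest for the 24 genes at the top and the bluest for the 13 at the bottom.

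Most of these genes did not pass a test between the constant diets. HFD and LFD differed by the edgeR test at 3836 genes in the higher direction (26.5%) and 3612 in the lower (25%). Of the 316 genes above, 26 were higher and 19 lower in HFD than in LFD, and 271 did not pass. Of the 307 below, 15 were higher, 20 lower and 272 did not pass. The rule used the same libraries, so these counts describe the genes it chose. Among the 58 genes higher than both diets by test, 12 were higher in HFD than in LFD, with Cxcl2, Gdf15 and Prdx1 among them.

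Transcript length separated the groups, and the rule did not use it. The longest annotated transcript had a median of 1950 bases for 312 genes above, 5383 bases for 307 genes below and 3270 bases for 13702 other genes. In each library, the deviation of log2 CPM from the gene's mean was also ranked against transcript length. Spearman's rho across genes was -0.473 in SW library A, -0.161 in B and -0.302 in C, between -0.217 and 0.0997 in LFD, and between 0.223 and 0.40 in HFD. Genes are not independent replicates, and these values describe the libraries. When each library was corrected for this trend with a smooth curve, an alternative chosen after seeing the data, 140 of the 316 genes stayed above and 132 of the 307 stayed below. Of the 37 named genes outside, 21 stayed outside and 22 passed against the mean of both diets. Those that met both were Serpina3f, Bcl2a1a, Cxcl2, Cxcl10, Fosb, Clec4e, P2ry10, Mt1, Jund, Cebpd, Prdx1, Papln, Vash1, Prnd, Ppp1r3b, Olfr558 and Apln. The ribosomal protein list then had 1 gene above in place of 12 and the V-ATPase list 3 in place of 5. The immediate early list had 2 in place of 4, the integrated stress response list 1 in place of 3 and the lysosome list 1 in place of 2. The redox defence list still had 4. Below both diets, the insulin list had 1 in place of 2 and the matrix list still had 2. Ttc28, Klf7, Ret, Dennd4a, Pik3r1, Aif1, Ccl7, Trbc2, Ier2, Atp6v0b and Ephx1 neither lay outside nor passed. Gdf15 passed (edgeR adjusted p = 0.00481) but was no longer outside all 6. GC content was alike, with medians of 51.1% above, 48.9% below and 49.7% for the others.

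**Figure D5:**
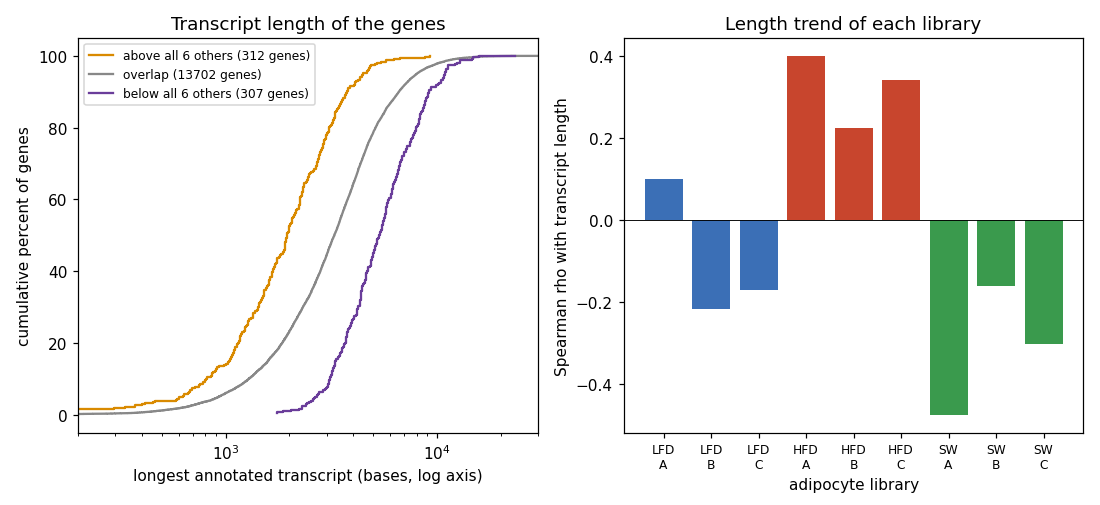
Left, cumulative percent of genes by longest annotated transcript, in bases on a log axis, for genes above all 6 others (orange, median 1950), genes below (purple, median 5383) and the rest (grey, median 3270). Right, Spearman's rho between transcript length and each library's deviation from the gene mean, lowest in SW library A at -0.473 and above 0.2 in all HFD libraries.

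Without library A, 31 of the 85 higher genes and 9 of the 60 lower genes that passed against the mean of both diets still passed, and 15 of the 37 named genes did. This library was the highest of the SW libraries for 244 of the 316 genes above and the lowest for 221 of the 307 below. Members were lost without other libraries too. Of the 85 higher genes, 32 (without HFD library C) to 71 (without SW library C) still passed. Of the 60 lower genes, 13 (without SW library B) to 47 (without HFD library B) did. Counts over all genes are given with the alternatives. Against the mean of both diets, Cxcl2, Sycp3, Vash1, Gdf15 and Prdx1 passed under every alternative that tested them. That contrast does not ask for a difference from each diet. Vash1 did not pass against LFD with all libraries (edgeR adjusted p = 0.0627). Gdf15 and Sycp3 were no longer outside all 6 after the length correction.

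A small set of higher genes is known from the testis, which lies beside the epididymal fat pad. Sycp3, a protein of the meiotic chromosome axis, was at 48.3, 94.7 and 81.8 CPM in SW, at 8.31 to 15.7 CPM in LFD and at 23.5 to 45.7 CPM in HFD, and passed against both (edgeR adjusted p = 0.0301 and 0.000656). Prm2, a protamine of sperm chromatin, was at 1.16, 5.23 and 4.08 CPM in SW and 0.15 to 0.951 CPM elsewhere. It had only 2 to 11 counts in those other libraries. Prm2 was thus among the genes that could enter the set through their SW level. Smcp, a sperm mitochondrial protein, was at 1.16, 3.24 and 2.58 CPM in SW and at most 0.527 CPM elsewhere, and was named after its value was seen. In SVC, Prm2 was at 237, 15.8 and 303 CPM in the 3 SW libraries and at 1.97 and 9.31 CPM in HFD. Sycp3 was at most 2.31 CPM in the SVC libraries of HFD and SW mice. The 13 epididymis and testis markers summed to 4.33 to 13.5 CPM in LFD, 0.751 to 6.97 CPM in HFD and 7.36 to 13.3 CPM in SW adipocytes, and Defb15 was at 0 in every library. Their part in the levels of Sycp3, Prm2 and Smcp was not tested.

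The SVC of the same diets gave measurements that the rule did not use. The SVC table holds 2 HFD and 3 SW libraries, and edgeR called 932 genes higher (5.71%) and 1917 lower (11.7%) in SW than in HFD. Leaving out SW library A or C of SVC left no gene past the threshold in edgeR (5435 and 4217 genes had an unadjusted p under 0.05), and single calls in this fraction are therefore weak. Of 311 adipocyte genes above both diets that were tested in SVC, 12 were higher and 17 lower in SVC. Of 305 below, 22 were higher and 52 lower. The median log2 fold change in SVC was 0.213 for genes above, -0.653 for genes below and -0.0877 for all genes tested in both. Genes above and below differ in transcript length, and the part of length in these SVC medians was not tested.

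The change from HFD to SW, whose adipocyte side the rule had used, was compared between the fractions in a single fit, as an interaction. It differed at 4727 of 17441 genes (27.1%). Among the 14461 genes tested in adipocytes it differed at 4621, with 84 of the 316 genes above and 124 of the 307 below. Without HFD library A of SVC it differed at 2936 genes, the single HFD library left being assumed to vary like the other groups. Vash1 was at 1.45 and 3.24 CPM in HFD and 7.69, 4.27 and 4.23 CPM in SW SVC, higher where it was lower in adipocytes, and the difference of log2 fold changes was -4.36 (edgeR adjusted p = 0.00142). Gdf15 was at 173 and 16.2 CPM in HFD and at 14.7, 11.4 and 19.5 CPM in SW SVC. The 2 HFD libraries of SVC differed widely for Gdf15, Cxcl2 (452 and 5.86 CPM) and Fosb (385 and 8.62 CPM), which leaves the direction in SVC unclear for these genes. Without HFD library A of SVC, the difference did not pass for Gdf15 (0.86, edgeR adjusted p = 0.184) or Cxcl2 (0.41, adjusted p = 0.732), while that for Vash1 did (-3.84, adjusted p = 0.00428).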

How the data were processed

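Epididymal adipocytes and SVC of LFD, HFD and SW mice were profiled by RNA sequencing of polyadenylated RNA. Bowtie2 and RSEM were run by the authors, and the deposited values are RSEM's expected counts for each gene, written as whole numbers without normalization; the submitters' processing notes name the build mm9 and limma, and tool versions are not given in the sources used here. The genes described and the lists were chosen with earlier results of these data known. The columns carry numbers found in no label, so the 9 adipocyte and 6 SVC libraries used (1 LFD, 2 HFD and 3 SW in SVC) were grouped by the diet in the column name. Another 3 columns of SVC values, whose names match no group, were not used.

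Counts were fitted in edgeR 4.0.16 under R 4.3.3, with TMM scaling and a low count filter (filterByExpr, at least 10). The diet groups of a fraction entered a robust quasi-likelihood fit together, with no covariate, and p-values adjusted by Benjamini-Hochberg were held to 0.05. This kept 14461 of 39017 genes. The scripts were tested on simulated data. Values after ± are the SE of the fit or, where marked, the SD over 3 libraries, and both hold the spread between libraries. Floors (3 counts) cover counting error only. Depth ran from 5781902 to 23725647 counts per library over both fractions. Named genes were the 12 highest and 12 lowest by the smaller of the log2 fold changes against HFD and LFD, among genes outside both diets that passed against their mean, where log2 CPM averaged 1 or more, no group at 0 and no shared symbol (predicted genes and pseudogenes left out); up to 4 such members of each list; and Atp6v0a1. A pair of genes that met this rule is not reported here. Transcript length and GC content came from the longest transcript in GENCODE M21, and promoters from RefSeq (GRCm38.p6), whose build differs from that of the files. The kappaB and serum response motifs were added after the named genes were known. Alternatives used limma 3.58.1 (voom), DESeq2 1.42.0, other scaling factors, filters and depth, and fits without each library; corrections for length and GC content, and the fits of the fraction difference without each SVC SW or HFD library, were chosen after seeing the data.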

Additional observations from a re-analysis of the deposited data

Results flagged for a closer look

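For 17 of the genes named above, adipocytes and SVC did not share the change from HFD to SW, by edgeR's test of the difference itself; values are the log2 change in adipocytes minus that in SVC. It was more positive in adipocytes for Cxcl2 (5.55), Gdf15 (3.26), Dusp2 (2.51), Clec4e (2.40), P2ry10 (2.32), Bcl2a1a (2.21), Pik3r1 (1.73), Mt1 (1.45), Prdx1 (1.41) and Gsr (1.26). It was more negative for Vash1 (-4.36), Papln (-3.55), Ttc28 (-2.0), Ret (-1.88), Emp2 (-1.84), Atp6v0a1 (-1.0) and Ephx1 (-0.97). The difference for Bcl2a1a, Pik3r1 and Mt1 did not pass in at least 1 fit without a SW library of SVC (highest edgeR adjusted p 0.0723, 0.101 and 0.0628). In SVC the HFD libraries stood at 452 and 5.86 CPM for Cxcl2 and at 173 and 16.2 CPM for Gdf15. Fits without each HFD library of SVC were added after seeing the data, with the HFD library left assumed to vary like the other groups. Without library A, 9 of the 17 did not pass: Cxcl2 (0.41), Gdf15 (0.86), Dusp2 (1.43), Clec4e (1.88), Bcl2a1a (2.17), Pik3r1 (0.37), Mt1 (0.69), Ephx1 (-0.63) and Atp6v0a1 (-0.76), with edgeR adjusted p from 0.0515 to 0.732. P2ry10, Prdx1, Gsr, Vash1, Papln, Ttc28, Ret and Emp2 passed without either HFD library.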

How the results depend on the processing

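No paired analysis was possible because the columns carry no replicate number of the labels. No named gene changed direction under any alternative, and 508 of 711 values for named genes kept their side of the threshold, 202 losing and 1 gaining it. Of the 37 named genes past the threshold, 37 passed with DESeq2 and 29 with limma-voom. Against the mean of both diets, DESeq2 called 1062 genes higher and 480 lower, and beyond both diets 134 higher and 78 lower. Without a filter on low counts 484 genes lay above. With the length correction, 45 genes were lower than the mean of both diets, 17 lower than both by test, and 193 below all 6. With that correction and SW library A left out, 192 were higher and 7 lower than the mean, 1324 higher than HFD, and 4 lower than both. In SVC, limma-voom called 531 higher and 1026 lower. Leaving out each adipocyte library gave 254 to 635 higher and 15 (without SW library A) to 118 lower against the mean, 627 to 2220 higher and 895 to 2413 lower against HFD, 1108 to 1539 higher and 509 to 1048 lower against LFD, and 12 (without HFD library C) to 136 (without SW library C) higher and 10 (without the same HFD library) to 66 lower than both. The genes above all others then numbered 353 to 780 and those below 355 to 748, since fewer libraries overlap less. Leaving out each SW library of SVC gave 0 to 495 higher and 0 to 98 lower, and leaving out each SVC library of SW or HFD gave 2936 (without HFD library A) to 6622 (without HFD library B) genes that differed between fractions. The cause of these changes was not tested. LFD libraries A and C, with 6142895 and 7510142 counts, limit genes at low counts.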

Other observations

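Further genes of interest among those above both diets were chosen after their values were seen. Fth1, the heavy chain of ferritin, was at 5290, 4059 and 3554 CPM in SW and between 1600 and 2807 CPM elsewhere, and passed against the mean of both diets (edgeR adjusted p = 0.0116); it too has processed copies with which reads may be shared. Txn1, thioredoxin, was at 702, 356 and 310 CPM in SW against 201 to 270 CPM, led by library A, and did not pass against that mean (adjusted p = 0.0647). Ccl4, a chemokine of monocytes and natural killer cells, was at 13.9, 9.07 and 7.37 CPM in SW, 4.88 to 6.04 CPM in HFD and 0.951 to 1.55 CPM in LFD. Klra3 and Klrb1b, receptors of natural killer cells, were at 3.68, 1.98 and 1.14 CPM and at 2.31, 2.46 and 1.57 CPM in SW, against at most 1.12 and 1.08 CPM elsewhere. For Klra3 the lowest SW library and the highest other were nearly level. No list of natural killer cell markers was set, so other markers of these cells were not compared.

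Below both diets, Itga6, a laminin receptor subunit, was at 94.7, 108 and 118 CPM in SW and between 126 and 220 CPM elsewhere. Akap2, an anchor of protein kinase A, was at 106, 135 and 133 CPM against 178 to 210 CPM.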
